A study of Homo sapiens with 8 samples.

Results

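Chromatin accessibility was compared between paclitaxel-resistant A2780 cells and A2780 control cells by ATAC-seq, an assay in which the Tn5 transposase inserts sequencing adapters into open DNA. The comparison took in every peak of the deposited peak set with at least 1 CPM (counts per 1000000, scaled to the reads in peaks) in at least 2 of the 8 libraries, which left 158698 of 159451 peaks, all of 1 fixed length near 1 kb. A2780 is an established human ovarian cancer cell line. The study held 4 groups of 2 libraries, all labelled as wild type: a control with no drug given in the labels, and lines resistant to cisplatin, to paclitaxel, and to both drugs (dual-resistant here). The labels do not say how resistance was selected, whether a line is 1 clone, or whether drug was present when cells were collected. Whether the paired libraries are independent cultures is not stated, so the p-values measure the spread between libraries, which may be technical.

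Paclitaxel binds beta-tubulin inside microtubules and stabilises them, which holds dividing cells in mitosis. Cells are known to withstand it by pumping it out through P-glycoprotein, the product of ABCB1, or by altered tubulin, altered microtubule-binding proteins or a raised threshold for apoptosis. An open promoter or enhancer lets transcription factors reach the DNA, so ATAC-seq shows which regulatory regions are available. It does not measure transcription.

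The 4 libraries of the comparison held between 7693492 and 8898337 reads in peaks, and 3 reads correspond to 0.337 to 0.390 CPM in them. Correlations of log2 values across peaks were 0.928 for the control pair, 0.933 for the paclitaxel-resistant pair and 0.807 to 0.808 between the groups. At the edge of the filter, the second-highest library stood at 1.01 CPM in the last peak kept and at 0.989 CPM in the first peak left out. In all, 376 peaks lay within 0.1 CPM inside this edge and 325 within 0.1 CPM outside it.

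Of the promoters described below, 5 are shown by the 250 bases before the RefSeq start site (GRCh38.p14). They were picked with their values known, and they are not the 5 with the largest differences. Sequences run 5′ to 3′ on the strand of the gene. Capitals mark exact matches, on either strand, to CCAAT (the NFY box), GGGCGG (a GC box bound by SP1 family factors), TGACTCA (the AP-1 site) or CCGGAAG (an ETS site); a match is a description and not a shown binding site. The ABCB1 promoter lies at chr7:87600885-87601134 on the minus strand. The other promoters lie at chr6:149963693-149963942 (ULBP1, plus), chr11:94543671-94543920 (FUT4, plus), chr12:13196476-13196725 (EMP1, plus) and chr11:102780629-102780878 (MMP10, minus).
ABCB1: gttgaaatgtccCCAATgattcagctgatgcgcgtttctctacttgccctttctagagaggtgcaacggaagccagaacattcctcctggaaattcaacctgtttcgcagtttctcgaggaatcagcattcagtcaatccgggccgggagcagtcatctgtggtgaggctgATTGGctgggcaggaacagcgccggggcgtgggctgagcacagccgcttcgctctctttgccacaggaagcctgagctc
ULBP1: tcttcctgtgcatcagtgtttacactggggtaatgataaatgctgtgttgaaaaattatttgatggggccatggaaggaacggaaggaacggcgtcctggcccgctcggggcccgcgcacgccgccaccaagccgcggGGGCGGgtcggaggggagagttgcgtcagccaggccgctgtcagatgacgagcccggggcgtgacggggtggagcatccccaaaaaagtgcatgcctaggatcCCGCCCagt
FUT4: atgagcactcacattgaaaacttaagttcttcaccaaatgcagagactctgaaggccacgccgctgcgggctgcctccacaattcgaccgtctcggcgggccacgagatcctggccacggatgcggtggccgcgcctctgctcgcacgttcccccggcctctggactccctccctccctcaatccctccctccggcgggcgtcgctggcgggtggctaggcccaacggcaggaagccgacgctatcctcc
EMP1: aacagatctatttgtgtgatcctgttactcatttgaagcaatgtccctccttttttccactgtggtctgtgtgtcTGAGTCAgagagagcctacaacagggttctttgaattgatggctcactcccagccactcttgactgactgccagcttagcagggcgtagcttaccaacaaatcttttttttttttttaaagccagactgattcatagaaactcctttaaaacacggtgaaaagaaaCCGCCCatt
MMP10: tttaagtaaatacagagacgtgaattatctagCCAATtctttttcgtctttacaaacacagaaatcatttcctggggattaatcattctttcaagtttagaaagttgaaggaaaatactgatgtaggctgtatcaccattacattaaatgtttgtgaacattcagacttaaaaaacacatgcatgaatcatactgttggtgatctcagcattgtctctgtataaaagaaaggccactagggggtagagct
The ABCB1 promoter held 2 CCAAT boxes. ULBP1 held 2 GC boxes, FUT4 held none of the 4 motifs, EMP1 held 1 AP-1 site and 1 GC box, and MMP10 held 1 CCAAT box. GC content was 65.2% at FUT4, 61.6% at ULBP1, 55.6% at ABCB1, 42.4% at EMP1 and 34.4% at MMP10. These promoters do not stand for the rest: over all promoters with a RefSeq start peak, the median GC content from 250 bases before to 50 after the start was 63.7% where the peak was called higher and 67% where it was called lower.

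Across the genome, 11525 peaks (7.26%) were called higher and 14557 (9.17%) lower in the paclitaxel-resistant libraries, at an adjusted p under 0.05 in limma. Differences of at least 2-fold numbered 7897 higher (4.98%) and 10495 lower (6.61%). Peaks at promoters were called higher in 2444 and lower in 2394 of 24068 cases (10.2% and 9.95%). Peaks inside genes gave 4005 higher (5.62%) and 5741 lower (8.05%) calls among 71310, and peaks outside genes gave 5076 (8.02%) and 6422 (10.1%) among 63320. The median log2 difference over all peaks was -0.14 on the CPM scale, and the split between directions moved with the scaling. The share of calls that were higher was 44.2% as deposited and 61.4% with median-ratio scaling, which brings that median close to 0. Genes named below that the naming rule did not choose, mostly further members of the gene lists, were picked after their values were seen.

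For gene-level statements, each protein-coding gene was represented by its strongest tested peak within 1 kb of its RefSeq start. Where no RefSeq start was given, the strongest peak within 1 kb of either end of the gene was taken. Such a peak is called a promoter peak here too, although it may lie at the far end of the gene. Genes with a RefSeq start but no peak there were left out. This gave a promoter peak to 15723 of 20052 genes. Of these, 2041 (13.0%) were called higher and 1547 (9.84%) lower, with a median log2 difference of 0.01. At least 2-fold differences were fewer and leaned downwards, with 411 higher (2.61%) and 701 lower (4.46%). The share of called promoters that were higher ranged from 47.8% with quantile scaling to 83.1% with DESeq2 on the recovered reads, against 56.9% as deposited.

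Chromosomes 6 and 7 stood apart from the other chromosomes along nearly their whole length. On chromosome 6, 1921 of 7549 peaks (25.4%) were higher and 163 lower, with a median log2 difference of 0.45. On chromosome 7, 1662 of 9610 peaks (17.3%) were higher and 201 lower, with a median of 0.32. On all the other chromosomes together, 7942 of 141539 peaks (5.61%) were higher and 14193 lower, with a median of -0.19.

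The same held in each of the 4 pairings of a paclitaxel-resistant with a control library, whose medians were 0.45 to 0.47 on chromosome 6, 0.31 to 0.34 on chromosome 7 and -0.20 to -0.17 elsewhere. Chromosome 6 took 4.14% and 4.10% of the CPM in the control libraries and 6.59% and 6.61% in the paclitaxel-resistant libraries. It took 4.92% and 4.83% in the cisplatin-resistant and 4.23% and 4.22% in the dual-resistant libraries. Chromosome 7 took 5.01% and 5.03% in control, 7.29% and 7.28% in paclitaxel-resistant, 4.80% and 4.84% in cisplatin-resistant and 5.09% and 5.04% in dual-resistant libraries. The paclitaxel-resistant pair was the highest for both chromosomes, with no overlap with any other group. Read counts do not separate more copies of a chromosome from more accessible chromatin on each copy, and DNA copy number was not tested.

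**Figure D1:**
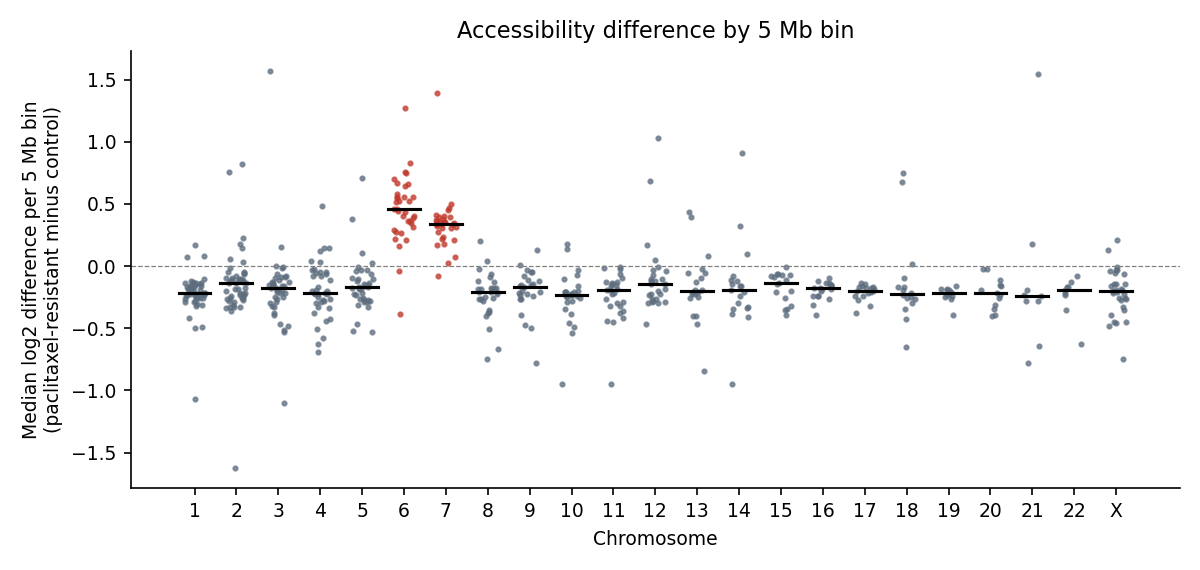
Median log2 difference (paclitaxel-resistant minus control) of the tested peaks in each 5 Mb bin with at least 20 peaks, by chromosome; each point is a bin and each black bar the median of the bins. On chromosome 6, 33 of 35 bins and on chromosome 7, 31 of 32 bins lay above 0 (red), against 46 of 528 bins on the other chromosomes (grey).

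At promoters a larger share of peaks was called higher on both chromosomes. Promoter medians were above those over all peaks on the other chromosomes too, so they do not show a wider gap between chromosomes. On chromosome 6, 558 of 822 promoter peaks (67.9%) were higher and 24 lower (median 0.64), and on chromosome 7, 414 of 746 (55.5%) were higher and 26 lower (median 0.50). On the other chromosomes 1069 of 14155 promoter peaks (7.55%) were higher and 1497 (10.6%) lower (median -0.02). The counts of gene lists below are therefore also given without these chromosomes where they hold many members.

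The promoter of ABCB1, the gene of the paclitaxel efflux pump P-glycoprotein, rose strongly (chr7:87600242-87601242). It had 9.10 and 6.82 CPM in the control and 71.1 and 72.1 CPM in the paclitaxel-resistant libraries. The cisplatin-resistant libraries had 7.77 and 7.48 CPM and the dual-resistant libraries 9.03 and 12.6 CPM. Only the paclitaxel-resistant pair was high, and it overlapped no other group. The log2 difference from control was 3.11 (SE 0.18, adjusted p = 8.63e-30 in limma), well above the median of its chromosome, and it was 2.69 against the dual-resistant line (adjusted p = 4.89e-25).

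The increase extended over the neighbourhood of the gene. From 200 kb below to 50 kb above the ABCB1 start in chromosome coordinates, 65 of 69 peaks were higher and none lower, with a median log2 difference of 1.94. Summed over these peaks, the control libraries had 95.7 and 93.8 CPM and the paclitaxel-resistant libraries 878 and 871 CPM. The cisplatin-resistant sums were 102 and 117 CPM and the dual-resistant sums 200 CPM in both libraries. Cisplatin-resistant cells were thus near control, while the dual-resistant pair lay above control and far below the paclitaxel-resistant pair. The 61 peaks under 2 CPM in control had a median of 1.94 and the 8 stronger peaks a median of 1.88. Some of the weak peaks reached 1 CPM only in the paclitaxel-resistant libraries and passed the filter through them. A rise at those peaks was fixed by the filter. The weak median, the count of 65 and the sums therefore do not show how widely weak peaks rose. The 0.5 CPM added before the log2 lessens the change of low peaks, so like medians do not mean like fold changes in CPM.

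Beyond this stretch the difference decreased on both sides. Between 400 and 200 kb below the start, 21 of 31 peaks were higher (median 1.53), and between 600 and 400 kb below, 3 of 7 (median 0.61). Between 50 and 300 kb above it, 3 of 11 were higher (median 0.65), and between 300 and 600 kb above, 2 of 5 (median 0.74). No peak of these blocks was called lower. The largest differences lay inside ABCB4, the adjacent gene for a phospholipid transporter of the same family. A peak there, at chr7:87447031-87448031, had 0.520 and 0.515 CPM in control and 77.3 and 81.6 CPM in the paclitaxel-resistant libraries. Another, at chr7:87440446-87441446, had 0 and 0.386 CPM in control and 34.8 and 32.4 CPM in the paclitaxel-resistant libraries.

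**Figure D2:**
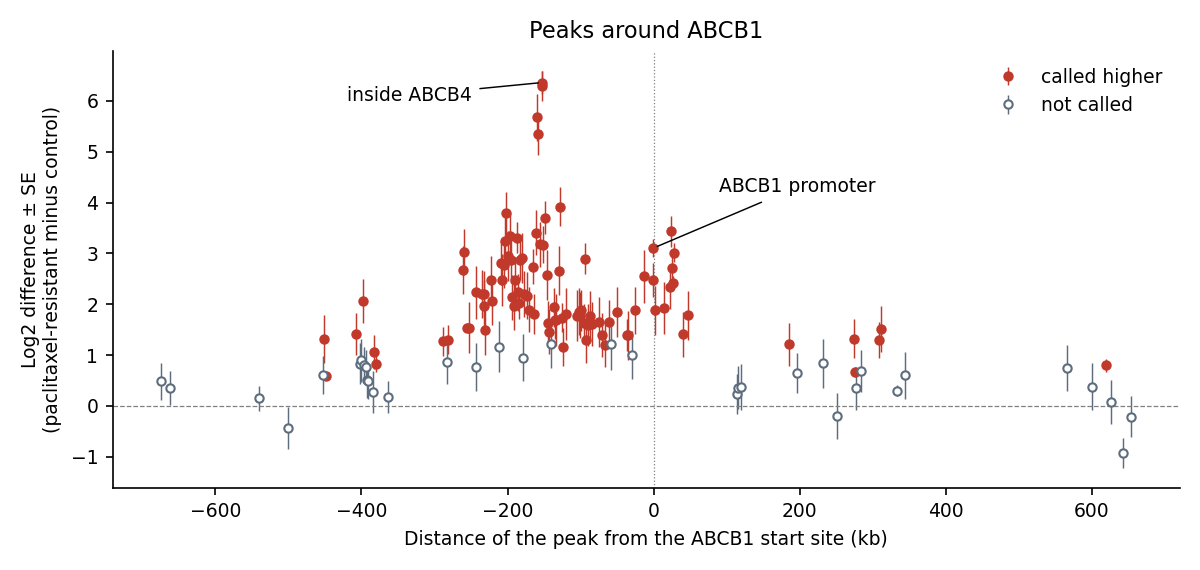
Log2 difference (paclitaxel-resistant minus control) with its standard error for each tested peak against the distance of the peak from the ABCB1 start site in kb. Filled points were called higher and open points were not called higher. The open point at 643 kb (-0.93) was called lower. From 200 kb below to 50 kb above the start, 65 of 69 peaks were called higher, and the highest points lie inside ABCB4. Some peaks weak in control passed the filter only through the paclitaxel-resistant libraries.

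The list of 34 genes around ABCB1 in 7q21 had 31 promoter peaks, of which 19 were higher and 1 lower (median 0.67). All of them lie on chromosome 7, where 55.5% of all promoter peaks were higher, so the chromosome-wide difference is part of each value. After the median of each 5 Mb bin was subtracted, 9 were higher and 11 lower. In the bin of ABCB1 the subtracted median was 1.39. Of its 162 peaks, 122 lie in the 1 Mb from 87 Mb that holds ABCB1, with a median of 1.77. There the subtraction also takes out the local rise, so these counts do not compare the neighbours with the chromosome-wide level. The ABCB1 promoter itself kept its call and direction under each alternative listed in the processing summary. The other drug transporters moved in both directions. Of the 15 measured ABC drug transporters and uptake carriers, 2 were higher (ABCB1 and ABCC10) and 4 lower, with a median of 0.00. ABCC10, on chromosome 6, rose by 0.67, ABCG2 (the breast cancer resistance protein) fell by 0.81 (adjusted p = 0.00108 in limma), and ABCC1 (MRP1) differed by -0.04 (adjusted p = 0.951). The fall at ABCG2 was no longer called without control library 2, at -0.68.

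A small set of promoters went from near closed to open. Under 1 CPM in control and at least 10 CPM in the paclitaxel-resistant libraries, with a call, was found at 16 promoters (0.102%), and the reverse at 14 promoters (0.089%) with 13 distinct peaks. Over all peaks there were 568 such openings (0.358%) and 406 closings (0.256%), of which 547 and 387 lay away from promoters. The largest promoter increase was at ULBP1, a stress-induced ligand of the natural killer cell receptor NKG2D (chr6:149963226-149964226). ULBP1 had 0.260 and 0.257 CPM in control and 35.6 and 43.2 CPM in the paclitaxel-resistant libraries, and means of 8.93 CPM in cisplatin-resistant and 17.3 CPM in dual-resistant libraries. The log2 difference was 5.71 (SE 0.23, adjusted p = 5.38e-42 in limma). The control values were below 3 reads, so the fitted difference depends on the pseudocount of 0.5 CPM.

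FUT4, a fucosyltransferase that makes Lewis X type sugars, had 0.520 and 0.386 CPM in control and 21.9 and 19.2 CPM in the paclitaxel-resistant libraries (log2 difference 4.46). It was also open in cisplatin-resistant (mean 13.4 CPM) and dual-resistant cells (mean 23.4 CPM). ZNF630, a zinc finger gene on chromosome X, had 0.260 and 0 CPM in control and 20.9 and 14.6 CPM in the paclitaxel-resistant libraries. ACYP2, an acylphosphatase gene, had 0.780 and 1.29 CPM in control and 37.0 and 36.6 CPM in the paclitaxel-resistant libraries. Its dual-resistant mean was 45.1 CPM and its cisplatin-resistant mean 3.95 CPM. CTNNA3, an alpha-catenin gene, was open in paclitaxel-resistant (27.8 and 26.5 CPM) and dual-resistant cells (mean 23.1 CPM) and not in control (0.390 and 1.54 CPM) or cisplatin-resistant cells (mean 0.229 CPM). No difference from the dual-resistant line was called at these 4 promoters: the log2 differences were -0.19 at FUT4, 0.59 at ZNF630, -0.29 at ACYP2 and 0.23 at CTNNA3, with adjusted p of 0.175 to 0.632.

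RARB, the retinoic acid receptor beta, had some signal in control and rose further (chr3:25427918-25428918). It had 6.89 and 6.44 CPM in control and 71.0 and 66.9 CPM in the paclitaxel-resistant libraries, against means of 8.24 CPM in cisplatin-resistant and 30.6 CPM in dual-resistant cells. The log2 difference was 3.28 (SE 0.16, adjusted p = 2.32e-35 in limma). RUNX2, a transcription factor best known from bone formation, had 6.89 and 10.7 CPM in control and 61.1 and 61.2 CPM in the paclitaxel-resistant libraries (2.76, SE 0.15). Both exceeded all 3 other groups. The neuronal transcription factors PAX6 (2.76) and POU3F3 (2.78) rose by a like amount. The thyroid hormone receptor gene THRB rose by 1.80, and NTS, which encodes the peptide neurotensin, by 3.62.

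**Figure D3:**
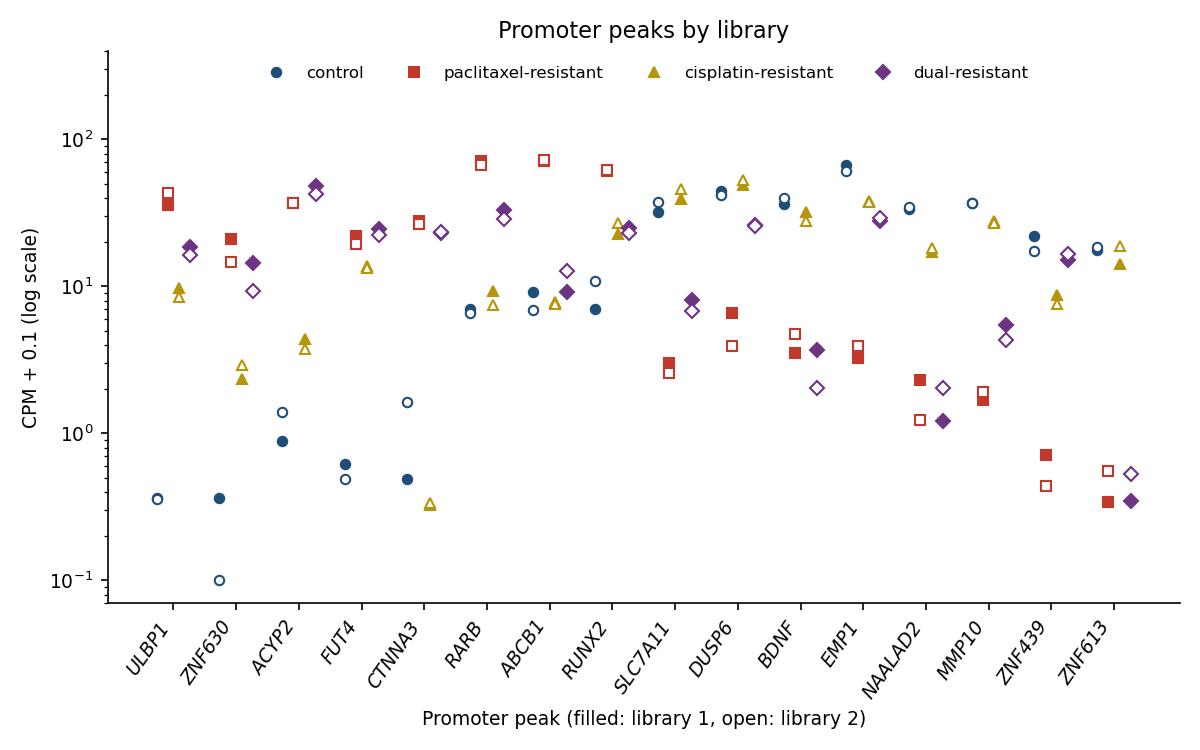
CPM plus 0.1 on a log scale at 16 promoter peaks in each of the 8 libraries (filled symbols, library 1; open symbols, library 2). From ULBP1 to RUNX2 the paclitaxel-resistant libraries (red squares) lie above the control libraries (blue circles). From SLC7A11 to ZNF613 they lie below them, with no overlap at any of the 16. Lack of overlap was part of the naming rule, and 9580 of all 15723 promoter peaks did not overlap.

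Among the named promoters that fell, EMP1, an epithelial membrane protein gene, lost the most CPM (chr12:13195995-13196995). It had 66.8 and 60.9 CPM in control and 3.16 and 3.82 CPM in the paclitaxel-resistant libraries, with means of 37.6 CPM in cisplatin-resistant and 28.5 CPM in dual-resistant cells. The log2 difference was -4.02 (SE 0.14, adjusted p = 1.27e-45 in limma). All 3 resistant lines were below control, and the paclitaxel-resistant line was the lowest. DUSP6, a phosphatase that switches off ERK, had 44.2 and 41.7 CPM in control and 6.43 and 3.82 CPM in the paclitaxel-resistant libraries (-2.99, SE 0.15, adjusted p = 4.63e-34). The cisplatin-resistant mean there was 50.9 CPM, so the fall was not shared by all resistant lines.

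MMP10, a secreted matrix metalloproteinase, had 36.7 and 36.8 CPM in control and 1.58 and 1.80 CPM in the paclitaxel-resistant libraries (-4.09, SE 0.21, adjusted p = 8.61e-34). The dual-resistant mean was 4.75 CPM and the cisplatin-resistant mean 27.2 CPM. BDNF, a neurotrophin gene, had 36.1 and 39.8 CPM in control and 3.40 and 4.61 CPM in the paclitaxel-resistant libraries (-3.11). The dual-resistant line was low at BDNF too, with a mean of 2.76 CPM. Some zinc finger genes of chromosome 19 changed in either direction. ZNF439 went from 21.8 and 17.2 CPM to 0.607 and 0.337 CPM, ZNF613 from 17.4 and 18.4 CPM to 0.243 and 0.450 CPM, and ZNF470 from 15.3 and 13.1 CPM to 0 and 0.899 CPM. ZNF525 went the other way, from 1.30 and 0.515 CPM to 26.3 and 24.6 CPM. ZNF439 and ZNF470 had signal in both other resistant lines, while ZNF613 was closed in the dual-resistant line too (mean 0.339 CPM).

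At most of the promoters counted here the surrounding peaks had a median difference in the direction of the promoter. For 18 promoters picked after their values were seen, the other tested peaks within 100 kb were counted. Around RARB, 35 of 42 were higher (median 2.42), around HAPLN1, which encodes a link protein of the hyaluronan matrix, 49 of 59 (1.86), and around RUNX2, 13 of 17 (1.54). Around EMP1, 37 of 41 were lower (median -2.51), around DUSP6, 19 of 20 (-2.70), and around MMP10, 21 of 25 (-2.92). Around ITGAV, the integrin alpha V gene, 44 of 48 were lower, and around PAX2, a kidney and Müllerian duct transcription factor, 61 of 80. At FUT4 the promoter peak rose while 0 of 11 other peaks were higher and 3 were lower (median -0.40).

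**Figure D4:**
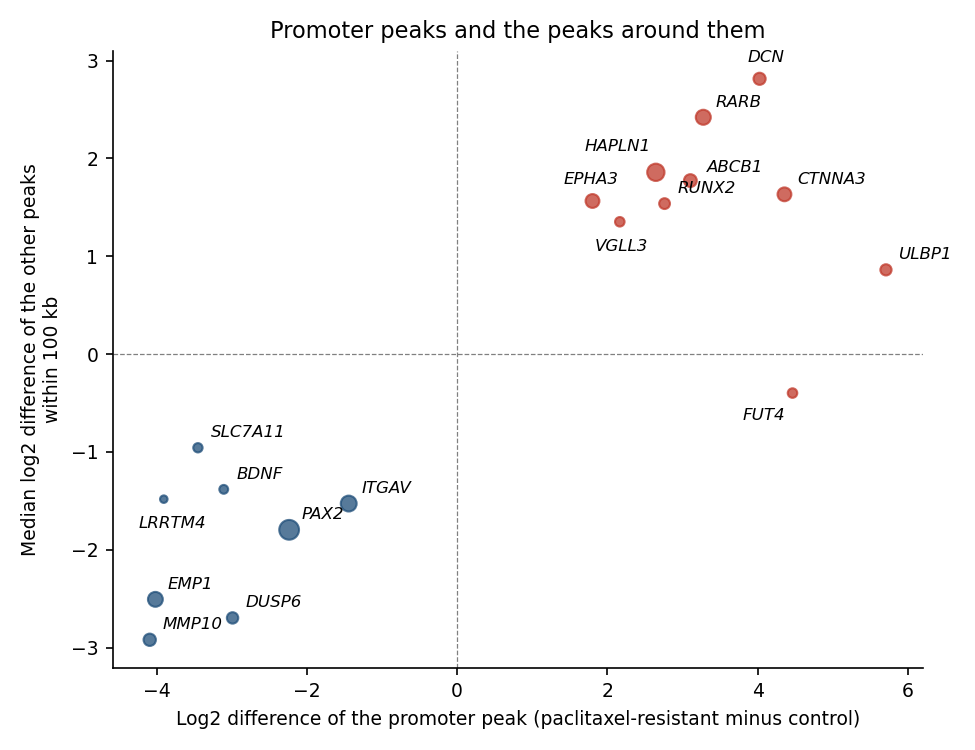
Median log2 difference of the other tested peaks within 100 kb against the log2 difference of the promoter peak (paclitaxel-resistant minus control) for 18 promoters picked after their values were seen; point area grows with the number of peaks within 100 kb (3 to 80). FUT4 lies at the right with neighbours below 0, whereas at RARB, HAPLN1 and ABCB1, and at EMP1, DUSP6 and MMP10, promoter and neighbours share a direction.

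Called peaks also lay together in windows, at genes and away from them. Of 13057 windows of 200 kb, 79 held 20 or more higher peaks and together 2184 (19.0%) of the higher calls, and 59 held 20 or more lower peaks and 1823 (12.5%) of the lower calls. Some of these windows hold promoters, as that of ABCB1 and ABCB4 does. The following windows were picked after their values were seen. In chr6:139800001-140000000, whose nearest protein-coding gene is CITED2, 35 of 36 peaks were higher (median 3.55), and the summed signal went from 14.8 and 15.6 CPM in control to 450 and 462 CPM in the paclitaxel-resistant libraries. In chr12:19800001-20000000 near AEBP2, 52 of 59 peaks were higher (median 2.89). In chr13:91000001-91200000 near GPC5, 37 of 49 peaks were lower, and the summed signal went from 482 and 454 CPM to 27.9 and 31.4 CPM. In chr5:146600001-146800000 at PPP2R2B, 37 of 42 peaks were lower, from 497 and 484 CPM to 24.3 and 28.4 CPM. The groups did not overlap in the summed signal of any of these windows, which were picked for their large differences.

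In bins of 5 Mb, the highest medians were at 85 to 90 Mb of chromosome 3 (1.57, 160 of 252 peaks higher), around EPHA3 and VGLL3, and at 20 to 25 Mb of chromosome 21 (1.55, 78 of 131). The bin of ABCB1 followed, at 85 to 90 Mb of chromosome 7 (1.39, 98 of 162). The lowest median was at 75 to 80 Mb of chromosome 2 (-1.62, 70 of 113 peaks lower), where LRRTM4, a synaptic adhesion gene, lies. Promoters and their distal peaks could differ: around AOPEP 44 of 64 distal peaks were higher and around DLG1, a cell polarity scaffold gene, 73 of 92 were lower, while the promoter differences were 0.05 (adjusted p = 0.861) and 0.11 (adjusted p = 0.488). JMJD1C, a histone demethylase family gene, had 77 of 138 distal peaks lower and a promoter difference of -0.79 (adjusted p = 5.51e-07), whose sign turned once the 5 Mb median was subtracted (0.16).

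Among the targets of paclitaxel, 17.4% of the promoters of tubulin and cofactor genes were called, against 22.8% over all promoters. Of 23 measured genes for tubulins and their folding cofactors, 4 were higher and none lower (median 0.15), and the 4 all lie on chromosome 6. Median-ratio scaling gave 11 higher. TUBB, the main beta-tubulin gene, had 45.6 and 40.9 CPM in control and 71.3 and 72.8 CPM in the paclitaxel-resistant libraries (0.73, adjusted p = 1.77e-08). The groups did not overlap, but the difference was close to the chromosome 6 promoter median of 0.64, and it was not called once the 5 Mb median was subtracted (0.28). The other 3 were TUBE1 (1.11), TUBB2A (0.76) and TBCC (0.53).

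No call was made for the beta-tubulin genes often linked to taxane response. TUBB3 had 15.1 and 16.1 CPM in control and 19.7 and 18.2 CPM in the paclitaxel-resistant libraries (0.27, adjusted p = 0.251), and it was called higher with median-ratio scaling (0.44). TUBB6 differed by -0.44 (adjusted p = 0.102) and TUBB1 by 0.60 (adjusted p = 0.343). Without control library 2, TUBB6 was called lower (-0.73) and TUBB1 higher (1.37). The microtubule-binding genes STMN1 (-0.05, adjusted p = 0.858), MAP4 (-0.02, 0.938) and MAPT (-0.20, 0.519) were not called. Of 42 microtubule regulators, 8 were higher and 4 lower, and this direction turned with quantile scaling (3 higher, 4 lower). As deposited 28.6% of them were called, not far from the 22.8% over all promoters. KATNA1, a severing enzyme subunit on chromosome 6, rose by 1.08, and DCLK1, a microtubule-binding kinase, fell by 1.48.

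Of 34 genes of the mitotic spindle and its checkpoint, 8 were higher and none lower (median 0.09, against 0.01 over all promoters). The share called, 23.5%, was near the 22.8% over all promoters. Only 3 of the 8 lie on chromosomes 6 and 7. The checkpoint kinase gene TTK rose by 0.97 and the kinesin gene KIFC1 by 0.67, both on chromosome 6. CDK1 rose by 0.36, KIF20A by 0.38 and MAD2L1 by 0.27 (adjusted p = 0.0303), and BUB1B was not called (0.17). The list held 3 higher and 1 lower with quantile scaling and 13 higher with median-ratio scaling. MAD2L1 was not called without control library 1 (0.15), without either paclitaxel-resistant library (0.30 and 0.24), or with quantile (0.11) or loess (0.12) scaling.

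Genes that set the threshold for apoptosis were called about as often as other promoters. Of 33 measured, 5 were higher, 3 lower and 25 not called (median -0.02), or 4 higher and 4 lower with quantile scaling. The share called was 24.2%, against 22.8% over all promoters. TNFRSF10D, a decoy receptor for the death ligand TRAIL, had 2.99 and 3.60 CPM in control and 26.0 and 32.8 CPM in the paclitaxel-resistant libraries (2.97). The gene of the initiator caspase CASP10 rose by 2.65. PMAIP1, which encodes the killer protein NOXA, fell by 1.63 (adjusted p = 1.03e-08). The survival genes BCL2 (-0.45, adjusted p = 0.249) and BCL2L1 (0.00, adjusted p = 1) were not called, and MCL1 fell by 0.43 (adjusted p = 0.000218), a call lost with DESeq2 (-0.26). CDKN1A, the p53 target that encodes the cell cycle inhibitor p21, had 19.8 and 18.9 CPM in control and 38.9 and 39.3 CPM in the paclitaxel-resistant libraries (1.0, adjusted p = 4.59e-09). It lies on chromosome 6. Of 31 p53 pathway genes, 4 were higher and 5 lower (29.0% called, against 22.8% over all promoters). On chromosomes 6 and 7, 3 were higher and 0 lower, and elsewhere 1 was higher and 5 lower.

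Of 66 DNA repair genes measured, 16 were higher and 2 lower (median 0.14), and 27.3% were called, against 22.8% over all promoters, of which 13.0% were higher and 9.84% lower. Of the 16 higher genes, 12 lie outside chromosomes 6 and 7. RAD50, a sensor of double-strand breaks, rose by 0.88 and PARP1 by 0.71. The list held 9 higher and 5 lower with quantile scaling and 34 higher and none lower with median-ratio scaling.

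Interferon response genes were called lower more often than higher. Of 60 measured, 24 were lower, 2 higher and 34 not called (median -0.41, against 0.01 over all promoters, of which 9.84% were lower). The lower count stayed between 15 and 24 under the other scalings and tools, with DESeq2 calling 15 lower and 4 higher, and between 18 and 20 with any 1 library left out. By role, 5 of 10 sensors of foreign nucleic acid and 16 of 33 target genes were lower, and none of the sensors and 1 of the target genes higher. Among sensors, AIM2 fell by 1.90, IFI16 by 1.80 and RIGI by 0.67. Among target genes, GBP1 fell by 2.27, OAS2 by 1.68, RSAD2 by 1.38 and IFIT2 by 1.18. The factor genes IRF9 and IRF1 fell by 0.83 and 0.71. The 2 higher genes were PARP14 (0.42) and IFNGR1 (1.18), a receptor chain gene on chromosome 6 whose sign turned once the 5 Mb median was subtracted (-0.09).

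GBP1, an interferon-induced GTPase, had 6.11 and 8.88 CPM in control and 1.58 and 0.787 CPM in the paclitaxel-resistant libraries. The dual-resistant mean was 1.53 CPM, from which the paclitaxel-resistant line was not called different (-0.27, adjusted p = 0.626). Of 39 genes for antigen presentation and NKG2D ligands, 13 of 25 were higher and 1 lower on chromosomes 6 and 7, where 62.0% of all promoter peaks were higher. On the other chromosomes 1 of 14 was higher and 4 lower. After the median of each 5 Mb bin was subtracted, 7 of the 39 were higher and 5 lower (median -0.09). NLRC5, the activator of class I genes, fell by 1.17. All 8 NKG2D ligand genes lie on chromosome 6, where 67.9% of promoter peaks were higher with a median of 0.64. Of the 8 ligand genes, 7 were higher, with a median of 1.20: besides ULBP1 they were ULBP3 (1.58), RAET1L (1.48), ULBP2 (1.24), RAET1G (1.15), MICB (0.92) and MICA (0.83). Around ULBP1, 8 of 19 other tested peaks within 100 kb were higher and 0 lower (median 0.86). Whether the ligand genes changed apart from their surroundings was not tested.

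Receptor tyrosine kinases and their ligands were lower more often than higher, with 19 lower and 7 higher of 66 (median -0.32). The share called was 39.4%, against 22.8% over all promoters, of which 13.0% were higher and 9.84% lower. Among ligands of the EGF receptor family, BTC fell by 2.14, AREG by 1.85, EREG by 1.58 and TGFA by 0.59. EGFR fell by 0.84 and MET by 1.01, although both lie on chromosome 7. The endothelial growth factor receptor gene KDR fell by 2.42, with 9.23 and 12 CPM in control and 1.34 and 1.80 CPM in the paclitaxel-resistant libraries. EPHA3 rose by 1.80 and ROR2 by 1.28. DESeq2 gave 10 lower and 9 higher for this list.

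TGF-beta and BMP genes gave 16 lower and 3 higher of 61 (median -0.05), with 11 lower and 9 higher under median-ratio scaling. As deposited 31.1% of them were called, against 22.8% over all promoters. TGFBR2, the type II receptor gene, had 11.0 and 8.62 CPM in control and 1.46 and 2.14 CPM in the paclitaxel-resistant libraries (-2.18). Chemokine and NF-kB genes gave 10 lower and 3 higher of 47 (median -0.23), or 5 lower and 3 higher with DESeq2. Their share called as deposited was 27.7%, not far from that over all promoters. CXCL2 fell by 1.72 and CXCL3 by 1.66, genes of neighbouring neutrophil attractants on chromosome 4, and IL15 fell by 1.95. TRAF1, an adaptor of TNF receptors, rose by 3.29 and was open in the dual-resistant line too.

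Neuronal and secreted peptide genes gave 18 lower and 3 higher of 57 (median -0.31, 36.8% called, against 22.8% over all promoters). The glutamate receptor genes GRIK1 and GRIN2B fell by 4.0 and 3.54, and the peptide genes SST and NPY by 1.68 and 1.5. Of 26 stem cell associated and oncofetal genes, 8 were lower and 2 higher (38.5% called). PROM1, which encodes CD133, fell by 1.57, HMGA1 by 1.27 and BMI1 by 1.05, while MYC rose by 0.73. Glycosyltransferases gave 9 lower and 2 higher of 37 (29.7% called), with FUT4 and HS3ST3B1 (0.63) the higher ones. DESeq2 gave 11 lower neuronal genes, 5 lower stem cell associated genes and 6 lower glycosyltransferases. Its higher counts for these 3 lists are not reported here, so no direction is given for them under DESeq2. Of 32 Notch and Hedgehog genes, 7 were higher and 2 lower, led by the Hedgehog co-receptor gene BOC (2.25). Their share called, 28.1%, was not far from the 22.8% over all promoters. Lineage transcription factors gave 20 higher and 38 lower of 139 as deposited and 23 and 15 with DESeq2, so no direction is given for them. The ribosomal protein genes, a control list, gave 2 higher of 35 and none lower, and both lie on chromosomes 6 and 7.

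**Figure D5:**
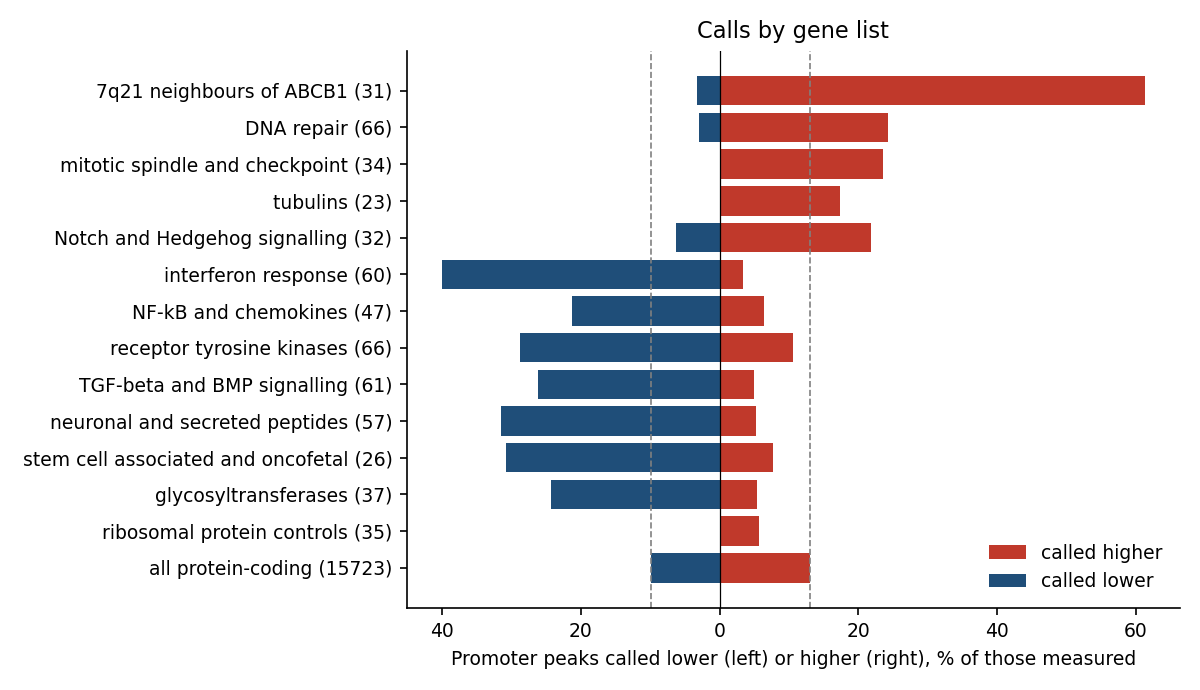
Percent of measured promoter peaks called lower (left, blue) and higher (right, red) in the paclitaxel-resistant libraries for 13 gene lists and all protein-coding genes, with the number measured in parentheses; dashed lines mark the 9.84% lower and 13.0% higher over all genes. Interferon genes have the longest bar to the left (24 of 60) and the 7q21 list, all on chromosome 7, the longest to the right (19 of 31).

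A part of the differences set the paclitaxel-resistant libraries apart from all 3 other groups. Of all peaks, 5530 (3.48%) were called higher than in each other group and 3286 (2.07%) lower, and of promoter peaks 1333 (8.48%) and 311 (1.98%). These 3 contrasts share the paclitaxel-resistant libraries. Of the 1333 promoters, 884 lie on chromosomes 6 and 7. Among the genes named here, ABCB1, ULBP1, RARB, RUNX2 and TUBB were higher than in each other group, and EMP1, DUSP6, MMP10, ZNF439 and PMAIP1 lower.

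Motif shares differed with the direction of the call and with its size. Over the 12572 measured promoters with a RefSeq start peak, 35.7% held CCAAT and 17.3% CCGGAAG in the window from 250 bases before to 50 after the start, on either strand. Of the 1737 called higher, 729 (42.0%) held CCAAT and 348 (20%) CCGGAAG. Of the 1179 called lower, 371 (31.5%) and 96 (8.14%) did. Off chromosomes 6 and 7, the 884 higher promoters held CCAAT in 44.7% and CCGGAAG in 18.6%. The 188 of these that were at least 2-fold higher held both less often than all promoters, CCAAT in 29.3% and CCGGAAG in 9.04%. The 531 at least 2-fold lower held them in 29.4% and 5.65%. TGACTCA was present in 3.16% of all promoters, in 3.72% of the 188 and in 5.27% of the 531. These shares were not tested, and promoters near one another are not independent.

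Of 18 markers of ovarian carcinoma, 17 had a tested promoter peak. Their summed values were 108 and 104 CPM in control and 81.6 and 76.0 CPM in the paclitaxel-resistant libraries. Of these, 5 were lower and 1 higher (35.3% called, against 22.8% over all promoters). SOX17 fell by 0.99 and EPCAM by 0.71. WT1 fell by 1.13 and EMX2 by 1.05, and neither was called without control library 1 (-1.06 and -0.80) or paclitaxel-resistant library 2 (-0.99 and -0.84). CLDN3 rose by 1.45 and was not called without control library 1 (1.30) or paclitaxel-resistant library 1 (1.17). Endothelial markers had a peak for 4 of 10 genes (22.4 and 20.7 against 26.6 and 24.9 CPM), with 1 higher and 1 lower. Fibroblast markers had 11 of 13 (93.3 and 104 against 129 and 127 CPM), with 3 higher and 1 lower (36.4% called). Haematopoietic markers had 11 of 17 (79.0 and 72.9 against 94.3 and 95.3 CPM), with 2 higher (18.2% called). An open promoter of such a gene in a cell line does not identify a cell type, and the part of other cells in the results was not tested.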

How the data were processed

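The study held 8 ATAC-seq libraries of A2780 cells in 4 groups of 2. The authors deposited 1 table of CPM values (counts per 1000000, scaled to the reads in peaks) for consensus peaks on hg38. Per the submitters' processing notes, Bowtie2, Picard and MACS2 were used. Their roles and versions, the Tn5 read shift and the peak merging are not given in those sources. Every CPM value came out as a whole number of reads within 0.01 reads, so edgeR 4.0.16 and DESeq2 1.42.0 were run on these reads as alternatives.

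Differences are from limma 3.58.1 (R 4.3.3) on log2(CPM + 0.5), a scale that understates the change of low peaks, with a mean-variance trend, all 8 libraries in the fit and Benjamini-Hochberg adjustment over 158698 peaks. A call is an adjusted p under 0.05. With 4 residual and 98.5 prior degrees of freedom, standard errors come mostly from the pooled trend. The fit was also run on simulated reads with known changes at a small set of peaks and no chromosome-wide shift. That run does not show how the fit performs on these data. Gene starts, names and promoter sequences are from RefSeq (GRCh38.p14). Of the 15723 promoter peaks, 12572 lay at a RefSeq start and 3151 at a gene end, and some genes share a peak (14208 distinct peaks). A distal peak lies within 100 kb of its nearest protein-coding start and not at a promoter.

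The rule for named genes took non-overlapping called promoters of at least 3 CPM in the higher group: the 12 with the largest difference per direction, up to 3 per direction of each gene list with a log2 difference of at least 1, the 5 genes per direction with most called distal peaks, the 5 largest peaks and 5 Mb regions per direction, and 20 paclitaxel-related genes. Some genes and promoters that this rule or the lists take in are not reported here. The members, the 43 gene lists and the rules were chosen with earlier results of these data known. Alternatives were pseudocounts of 0.1 and 2, no filter or a filter at 3 CPM, quantile, loess and median-ratio scaling, a fit on the compared groups only, a replicate block, subtraction of 5 Mb medians, edgeR, DESeq2 and leaving out each library. Counts without chromosomes 6 and 7 were added after seeing the data. Replicate numbers do not pair libraries: deviations from group means correlated between -0.000587 and 0.00332 across 158698 peaks.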

Additional observations from a re-analysis of the deposited data

Results flagged for a closer look

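At 11 named promoters the paclitaxel-resistant line and another resistant line were called in opposite directions from control. A promoter was listed only where the direct contrast between the 2 resistant lines was also called in the same limma fit. The direct contrasts below are therefore no separate support. Values are log2 differences. Against the cisplatin-resistant line, the paclitaxel-resistant line was higher by 5.24 at CTNNA3 (4.36 and -0.89 from control), by 4.89 at NTS (3.62 and -1.26) and by 4.40 at HAPLN1 (2.65 and -1.75). It was lower at PI15, a protease inhibitor gene, with a difference of -5.82 (-4.89 and 0.93 from control). The difference was -3.37 at TGFBR2 (-2.18 and 1.19), -2.69 at TGFB1I1, a focal adhesion gene (-1.53 and 1.16), and -1.29 at JMJD1C (-0.79 and 0.50).

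Against the dual-resistant line, the difference was -2.15 at CD74, the class II invariant chain gene (-1.02 and 1.13 from control). It was 1.51 at SOD2, a mitochondrial superoxide dismutase gene (1.14 and -0.37), 1.42 at SESN1, a p53 target (1.07 and -0.34), and 1.04 at TUBB (0.73 and -0.31). SOD2, SESN1 and TUBB lie on chromosome 6.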

How the results depend on the processing

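Of 147 named promoters that were called, 119 kept their direction and call under every alternative run. The median difference over all peaks, -0.14 as deposited, was -0.044 with quantile scaling and within 0.01 of 0 with median-ratio, loess, edgeR and DESeq2 scaling. Promoters called higher, 2041 as deposited, were 3521 after 5 Mb subtraction, 3241 with DESeq2, 4095 with edgeR, 4211 with median-ratio scaling and 1069 without chromosomes 6 and 7. Promoters called lower, 1547 as deposited, were 987, 658, 955 and 953 in the first 4 of these. Lower peaks, 14557 as deposited, were 9029 after 5 Mb subtraction and 6364 with DESeq2. Peaks higher than in all 3 other groups, 5530 as deposited, were 8614 with edgeR, 8316 with median-ratio scaling and 3331 without chromosomes 6 and 7. Peaks lower than in all 3, 3286 as deposited, were 1859 after 5 Mb subtraction, 1133 with DESeq2, 2086 with loess, 1854 with edgeR, 2158 with median-ratio and 1755 with quantile scaling. The cause was not tested. With 1 library left out there were 8184 to 9056 higher and 8897 to 10876 lower peaks (9162 without control library 1, 8897 without control library 2). Promoters then gave 1419 to 1580 higher and 1003 to 1094 lower calls (1003 without control library 1, 1014 without control library 2). Peaks that differed from all 3 gave 3784 to 4717 higher and 2398 to 2895 lower. The lone library is then assumed to vary like the others. The replicate block gave 11593 higher and 14783 lower peaks, 2033 and 1560 promoters, and 5559 and 3338 peaks that differed from all 3.

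Signs turned mostly at promoters that were not called. ABCC1 was 0.054 after 5 Mb subtraction, 0.13 with DESeq2, 0.15 with loess, 0.12 with edgeR, 0.12 with median-ratio and 0.057 with quantile scaling, and -0.21 to 0.13 with 1 library left out. MAP4 was 0.19 after 5 Mb subtraction, 0.16 with DESeq2, 0.15 with edgeR and 0.15 with median-ratio scaling (-0.072 to 0.040 with 1 library left out). STMN1 was 0.12 after 5 Mb subtraction, 0.13 with DESeq2, 0.12 with edgeR and 0.12 with median-ratio scaling (-0.18 to 0.080). AOPEP was -0.083 after 5 Mb subtraction, -0.018 with loess and -0.049 with quantile scaling (-0.039 to 0.13). BCL2L1 was -0.096 with loess and -0.11 with quantile scaling (-0.12 to 0.12), and DLG1 was -0.021 and -0.024. With 1 library left out BUB1B ranged from -0.021 to 0.36 and TUBB1 from -0.17 to 1.37. After 5 Mb subtraction the called promoters of IFNGR1 (-0.088) and JMJD1C (0.16) changed sign, and SPTBN1 was -0.60. At 7693492 to 8898337 reads per library, a peak at 0.4 CPM rests on about 3 reads, so fold differences from closed peaks are fitted values and not bounds.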
